A study of Mus musculus with 81 samples.

Results

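The autophagy and lysosome genes examined here were 40 genes fixed as a list by name, and all 40 of 40 were found by symbol among the 57010 genes of the count tables. They cover the steps from the nutrient signal to the lysosome, and were read in laser captured CA1 pyramidal neurons (PNs), CA3 PNs and dentate gyrus granule cells (DGCs) of the hippocampus by genotype and maternal diet. Male Ts65Dn mice (Ts), a segmental trisomy model of Down syndrome, and disomic (2N) littermates were examined at about 6 months of age. Breeders were Ts65Dn females and males of the C57Bl/6J Eicher × C3H/HeSnJ F1 cross, and the dams received either the choline normal diet (ChN, 1.1 g/kg choline chloride) or the choline supplemented diet (ChP, 5.0 g/kg choline chloride) until the pups were weaned, after which every mouse ate the control diet. There were 6 mice of 2N ChN, 6 of Ts ChN, 7 of 2N ChP and 9 of Ts ChP. They gave 81 RNA-seq libraries, of which 27 were from CA1 PNs, 26 from CA3 PNs and 28 from DGCs. In the same order of groups, CA1 PNs had 6, 5, 7 and 9 libraries, CA3 PNs 6, 6, 7 and 7, and DGCs 6, 6, 7 and 9. The CA3 PN library of mouse 15-145 carries a Ts label, against the 2N label on its CA1 PN and DGC libraries, and was taken as 2N.

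Macroautophagy encloses cytoplasm in a double membrane, the autophagosome, and delivers it to the lysosome for degradation. The ULK1 kinase complex starts the process and is held back by mTORC1 when nutrients are plentiful. A class III phosphatidylinositol 3-kinase complex then marks the membrane, lipid transfer proteins enlarge it, and a pair of ubiquitin-like conjugation systems attach proteins of the ATG8 family to it. Receptors such as p62 tie cargo to the ATG8 proteins. Lysosomal proteases of the cathepsin family digest the delivered material, and the transcription factor TFEB drives many lysosomal and autophagy genes. Neurons form autophagosomes at axon ends and carry them back to the cell body, and lysosomal and autophagic organelles accumulate early in Down syndrome and Alzheimer's disease brain.

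Total expected counts per library ranged from 358355 to 4744036, with a median of 1071904 in CA1 PNs, while CA3 PNs had 1538372 and DGCs had 929301. The 40 genes together took between 0.279% and 0.361% of a library's counts. Their genes lie outside the 36 listed chromosome 16 genes of the Ts65Dn triplication, a stretch of chr16:84631140-95929231 in GRCm39. Atg3 was the only member on that chromosome, at chr16:44978748-45008901. Ts65Dn mice also carry a triplicated segment of chromosome 17, and the members were not checked against it. The summed level of the 36 chromosome 16 genes was 6637 to 7546 CPM (counts scaled to library size by TMM factors) in the 2N libraries of CA3 PNs and 9739 to 11243 in the Ts libraries. In DGCs the ranges were 4615 to 5119 and 7058 to 7967. In CA1 PNs, Ts libraries held 7729 to 9354 CPM and 2N libraries 5520 to 9150, since 1 library labelled 2N, that of ChN mouse 17-154, stood at 9150.

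The captures were checked against marker genes of each cell type. The median of the summed CA1 PN markers was 1466 CPM in CA1 PNs against 31.0 in CA3 PNs and 38.1 in DGCs. In 10 of the 27 CA1 PN libraries, however, 6 markers of CA2 pyramidal neurons summed to 422 to 1773 CPM, against 71.0 to 134 CPM in the other 17. In these 10 libraries the CA1 markers summed to 54.2 to 1078 CPM and the CA3 markers to 148 to 648 CPM, while the 17 held 1362 to 1998 and 4.50 to 38.2 CPM. They came from every group, with 2 from 2N ChN, 1 from Ts ChN, 3 from 2N ChP and 4 from Ts ChP. CA1 PN results were therefore computed again without these 10 libraries, a comparison chosen after the data were seen. Values from both are given for part of the calls that changed or moved by over 1.5 times. The other calls that changed are given by gene name only. Markers of other cells were also present. The summed oligodendrocyte markers had medians of 163 CPM in CA1 PNs, with 348 for CA3 PNs and 191 for DGCs. Microglial markers had medians of 23.8, 23.5 and 30.4 CPM in the same order, inhibitory neuron markers 219, 178 and 226, and astrocyte markers 156, 202 and 171. The 10 CA1 PN libraries held 246 to 439 CPM of inhibitory markers, against 138 to 222 in the other 17. Their oligodendrocyte markers summed to 163 to 325 CPM, against 104 to 206. As these are bulk samples of many captured cells, fewer cells of a type and less RNA per cell cannot be told apart.

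All 40 genes were detected, and their levels spanned more than 2 orders of magnitude. Levels of different genes were compared as TPM, a unit that divides by transcript length and by depth. TPM values rank genes within a population and are not compared between populations. Sqstm1, which encodes the cargo receptor p62, Gabarapl1, an ATG8 family member, and Becn1, the regulatory subunit Beclin 1 of the class III kinase complex, were the 3 highest in all 3 populations. Sqstm1 had a median of 175 TPM in CA1 PNs, while CA3 PNs had 374 and DGCs had 193. Becn1 had 92.9, 166 and 109 TPM. The lowest 3 in CA3 PNs were Tfeb, Wipi1 and Atg10, while in CA1 PNs and DGCs the lowest 3 included Optn, which encodes the mitophagy receptor optineurin. Tfeb had a median of 1.58 TPM in CA1 PNs, with 0.460 for CA3 PNs and 1.61 for DGCs, and it was listed at 0 in 4, 6 and 4 libraries. Atg10, an E2-like enzyme of the ATG12 system, was at 0 in 4 libraries in all.

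The 5 ATG8 genes were unequal. Gabarapl1 stood at a median of 193 TPM in CA1 PNs, while CA3 PNs had 315 and DGCs had 182. Map1lc3a, which encodes LC3A, had 44.6, 80.7 and 24.4 TPM and was second among the 5 in CA1 and CA3 PNs but last in DGCs. Gabarap had 34.2, 42.8 and 32.3 TPM, Map1lc3b had 27.4, 38.7 and 25.8, and Gabarapl2 had 19.7, 26.6 and 26.5. Thus Gabarapl1 carried the most ATG8 transcript per length in every population. The other 4 had the same order in CA1 and CA3 PNs but not in DGCs, where Gabarapl2, Map1lc3b and Map1lc3a lay close together.

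**Figure D1:**
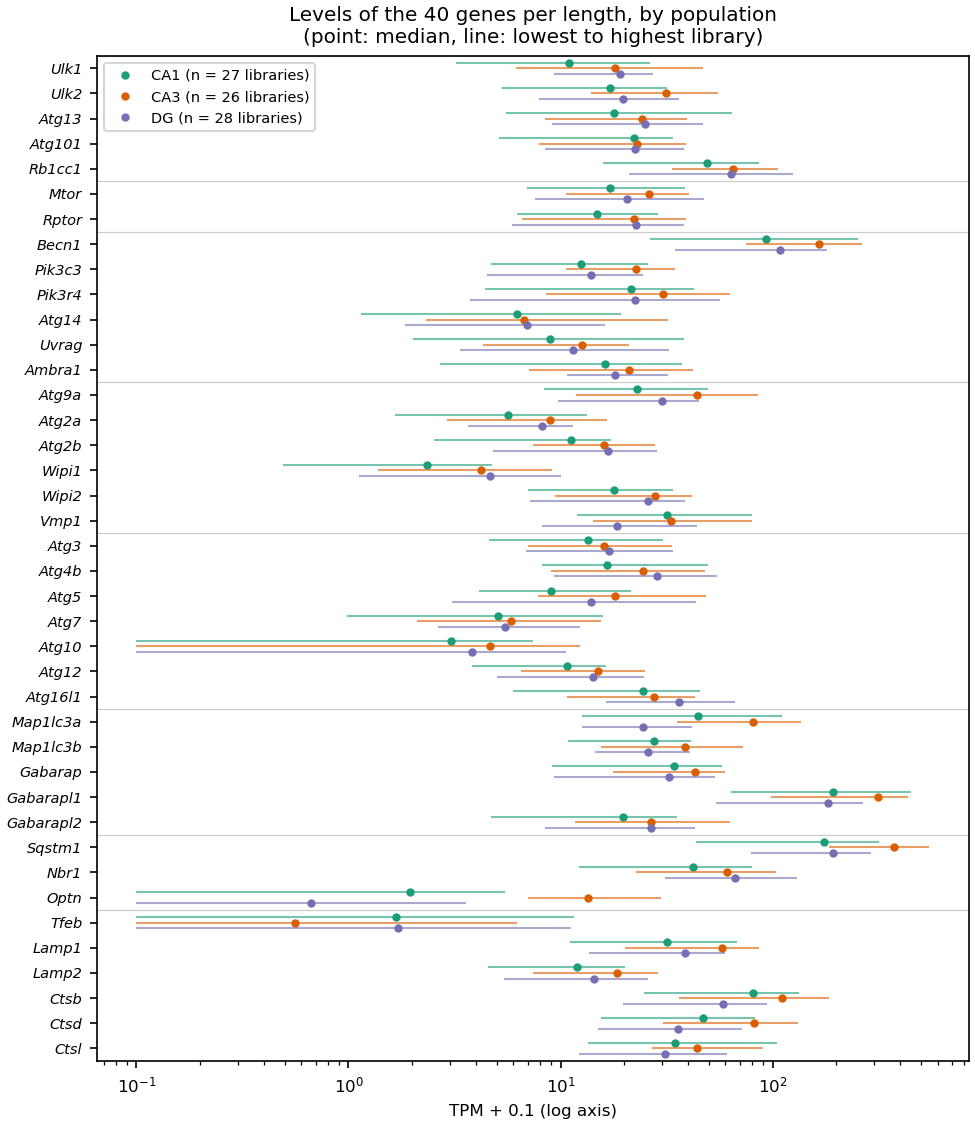
Levels of the 40 genes by role for each neuron population, as the median over libraries on a log axis of TPM. Sqstm1, Gabarapl1 and Becn1 stand at the top in every population and Tfeb at 0.460 to 1.61 TPM. Optn stands at 0.565 TPM in DGCs and 13.4 in CA3 PNs. TPM ranks genes within a population and is not compared between populations.

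The first question was how the 3 neuron populations of the same mice differ. CA3 PNs held the most transcript of the 40 genes, with a summed level of 3394 to 3839 CPM (median 3632), DGCs the least, at 2582 to 2829 (median 2704), and CA1 PNs lay between, at 2906 to 3525 (median 3147). The ranges of CA3 PNs and DGCs did not overlap. This order rests on TMM scaling. As a share of library counts the 40 genes took 0.318% to 0.361% in CA3 PNs, while CA1 PNs had 0.279% to 0.329% and DGCs had 0.281% to 0.313%, so that CA1 PNs overlapped with both others. Of the 40 genes, 18 were higher in CA3 PNs than in both other populations, and 18 were lower in DGCs than in both others, at an adjusted p under 0.05. Only Nbr1 was higher in DGCs than in both others, only Atg101 and Vmp1 were higher in CA1 PNs than in both, and only Atg16l1 and Tfeb were lower in CA3 PNs than in both. These 5 genes were in the same place without the 10 CA1 PN libraries. Then 21 genes were higher in CA3 PNs and 13 lower in DGCs than in both others. Ulk1, Rptor, Atg2b, Wipi1 and Nbr1 were lower in CA1 PNs than in both others, and without the 10 libraries Ulk1, Atg2b, Nbr1 and Lamp2 were. The share of all genes with each of these patterns was not counted, so whether the counts are unusual was not tested.

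Between CA1 and CA3 PNs, 27 of 40 genes differed (67.5%), 4 higher and 23 lower in CA1 PNs, with a median log2 fold change (LFC) of −0.19. Among all 20493 genes tested, 39.4% differed, 19.6% higher and 19.8% lower, with a median LFC of 0.01. Since detection depends on level, the 11561 protein-coding genes at or above the mean level of the lowest member were also counted, and 54.4% of these differed, 25.5% higher and 28.9% lower. Between CA1 PNs and DGCs, 24 of 40 differed (60.0%), 19 higher and 5 lower in CA1 PNs, with a median LFC of 0.16. Here 49% of all genes differed, 24.9% higher and 24.2% lower, with a median LFC of −0.02, and 65.9% of the expressed protein-coding genes, 36% higher and 29.9% lower. Between CA3 PNs and DGCs, 29 of 40 differed (72.5%), 26 higher and 3 lower in CA3 PNs, with a median LFC of 0.35. For this pair 55.9% of all genes differed, 27.4% higher and 28.4% lower, with a median LFC of −0.04, and 72.5% of the expressed protein-coding genes, 39.6% higher and 32.9% lower. Against the expressed protein-coding genes, the share of members that differed was higher between CA1 and CA3 PNs, lower between CA1 PNs and DGCs and the same between CA3 PNs and DGCs, and most members that differed did so in 1 direction. These shares are descriptions and were not tested.

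The split by direction depended on the scaling of the libraries. With library totals in place of TMM factors the median LFC of all genes moved to −0.16 for CA1 PNs against DGCs and −0.24 for CA3 PNs against DGCs, and the members split into 11 higher and 12 lower, and 18 higher and 10 lower. Under DESeq2 size factors the splits were 16 to 5 and 23 to 5. For CA1 against CA3 PNs, the split was 4 to 15 with library totals and 4 to 21 with DESeq2. Without the 10 CA1 PN libraries high in CA2 markers, 29 genes differed between CA1 and CA3 PNs, 26 of them among the 27. Of all genes, 41.0% then differed. Wipi1 was lost (−0.21) and Ctsl, Gabarapl1 and Map1lc3b were gained. Further, 18 differed between CA1 PNs and DGCs, beside 43.8% of all genes, 17 of them among the 24, Lamp2 being gained. The 7 genes no longer called for CA1 PNs against DGCs were Becn1 (0.05), Ctsl, Lamp1, Pik3c3, Pik3r4 (0.05), Rptor and Wipi1. Of the genes still called, Ulk2 moved from 0.29 to 0.19 in this pair and Pik3r4 from −0.21 to −0.33 for CA1 against CA3 PNs. All 29 genes that differed between CA3 PNs and DGCs did so again.

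The called genes mostly had 1 direction over the groups. Each of the 27 genes called between CA1 and CA3 PNs and each of the 29 called between CA3 PNs and DGCs had the same sign in all 4 genotype and diet groups, as did 23 of the 24 called between CA1 PNs and DGCs, Rptor being the exception. These 4 values come from 1 fit and share its estimate of the spread. The genes were called on the mean of the same 4 values, which favors a shared sign, so the agreement is no separate support. A further 6 genes, Atg13, Atg14, Wipi2, Atg3, Atg10 and Gabarapl2, differed in no pair.

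**Figure D2:**
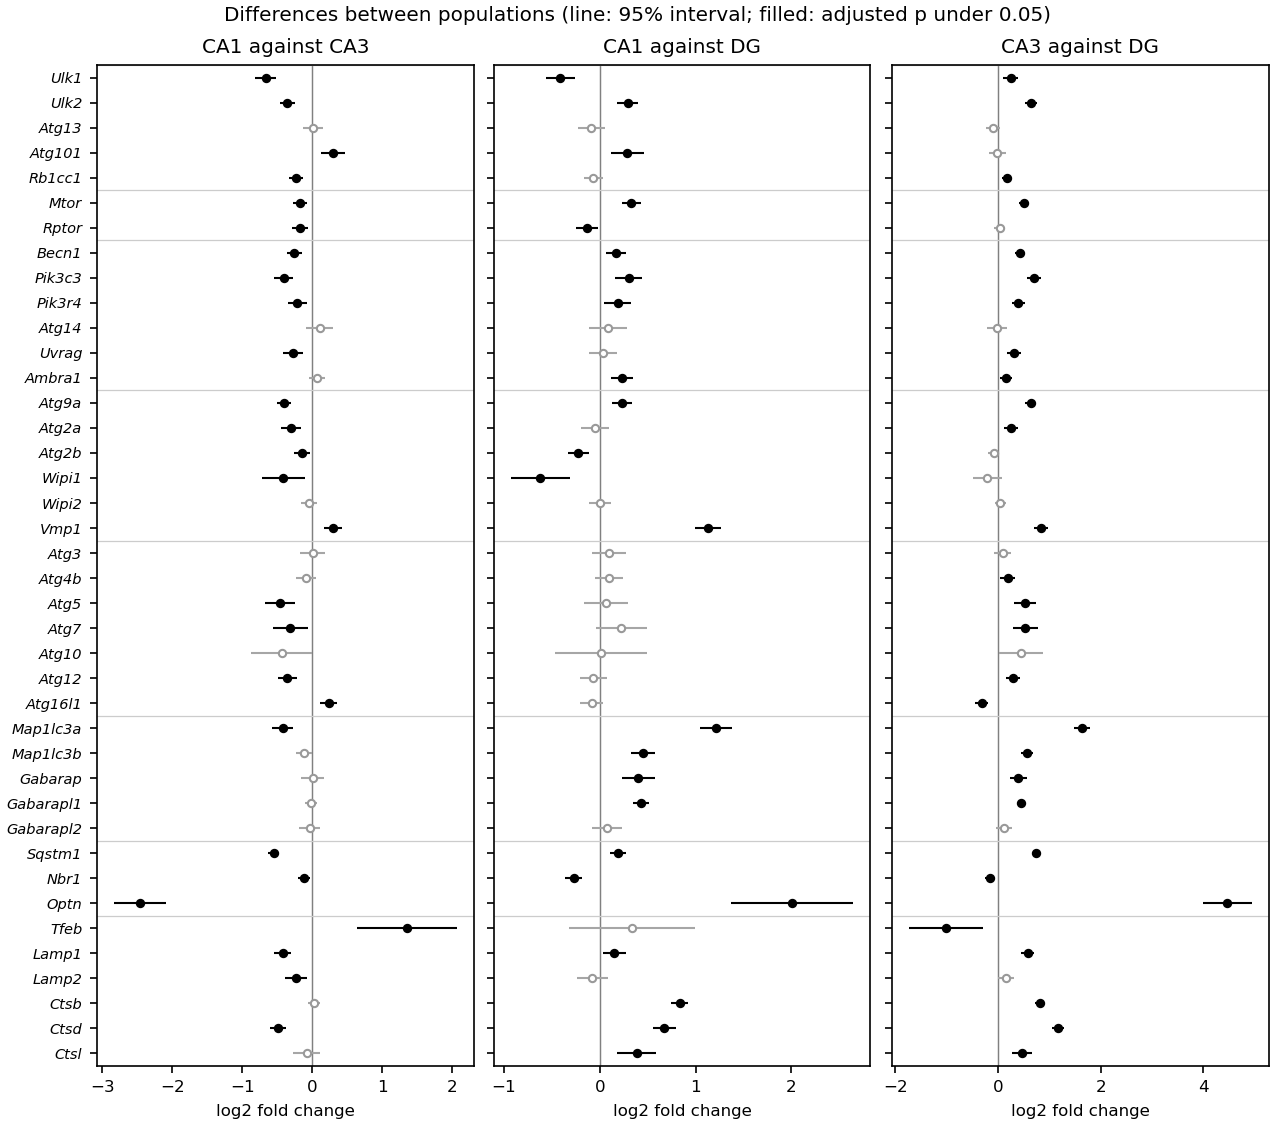
LFC with 95% interval of each of the 40 genes for CA1 against CA3 PNs, CA1 PNs against DGCs and CA3 PNs against DGCs, by role; filled points have an adjusted p under 0.05. The CA3 against DGC points lie mostly to the right of 0 (26 higher, 3 lower) and Optn, at 4.47, lies farthest out.

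The 3 selective receptors showed the widest range. Optn had 20.0 CPM in the lowest CA3 PN library, a median of 26.9 and 40.9 in the highest. In DGCs it had 0, 1.14 and 4.05 CPM, with 9 of 28 libraries at 0, and in CA1 PNs 0, 4.40 and 15.2 CPM. All CA3 PN libraries thus lay above every CA1 PN and DGC library. Optn was 22.1-fold higher in CA3 PNs than in DGCs (LFC 4.47, SE 0.24, adjusted p = 8.7e-25) and 5.5-fold higher than in CA1 PNs (LFC −2.46 for CA1 against CA3 PNs, SE 0.19, adjusted p = 1.2e-17). For CA1 PNs against DGCs the LFC was 2.01 (SE 0.32, adjusted p = 2.6e-07). The CA1 PN value rested on the libraries described above, since Optn had 4.93 to 15.2 CPM in the 10 libraries high in CA2 markers and 0 to 5.19 CPM in the other 17. Without the 10, the CA1 PN and DGC difference fell to 0.92 (SE 0.34, adjusted p = 0.017) and that of CA1 and CA3 PNs widened to −3.42 (SE 0.19). Optineurin is also made by glia, and the oligodendrocyte marker sum was 255 to 534 CPM in CA3 PNs, with 104 to 325 for CA1 PNs and 98.3 to 238 for DGCs; the part of these cells in the Optn result was not tested.

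Sqstm1 ranged from 371 to 507 CPM in CA3 PNs (median 443). CA1 PNs held 241 to 350 CPM (median 295) and DGCs 222 to 298 (median 265). Every CA3 PN library exceeded every library of the other populations. Its LFC was 0.74 for CA3 PNs against DGCs (SE 0.04, adjusted p = 1.3e-34), −0.55 for CA1 against CA3 PNs (SE 0.04, adjusted p = 8.3e-24) and 0.19 for CA1 PNs against DGCs (SE 0.04, adjusted p = 2.9e-05). Nbr1, a second ubiquitin-binding receptor, went the other way, with medians of 184 CPM in DGCs, while CA3 PNs had 165 and CA1 PNs had 153. Its LFC for CA1 against CA3 PNs was −0.12, and −0.18 without the 10 libraries. It was lower in CA1 PNs than in DGCs by an LFC of −0.27 (SE 0.05, adjusted p = 1.3e-07), and in 26 of 27 mice with both populations.

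Within the ATG8 family, 4 of 5 genes were higher in both pyramidal populations than in DGCs, with median LFCs over the 5 of 0.43 for CA1 PNs and 0.45 for CA3 PNs. Of all genes, 24.9% were higher in CA1 PNs than in DGCs and 27.4% in CA3 PNs. The shares of expressed protein-coding genes were 36% and 39.6%. With library totals the count of ATG8 genes for CA3 PNs was 3, Gabarap missing the threshold. Map1lc3a differed most. It had 50.0 to 85.9 CPM in CA3 PNs (median 63.7), with 30.3 to 78.5 (median 50.6) for CA1 PNs and 12.2 to 34.3 (median 21.8) for DGCs. No DGC library reached the lowest CA3 PN library, and all 26 mice with both populations had more in CA3 PNs, with an LFC of 1.64 (SE 0.08, adjusted p = 1.0e-37). CA1 PNs exceeded DGCs by 1.22 (SE 0.09, adjusted p = 6.8e-26) and fell below CA3 PNs by −0.42 (SE 0.07, adjusted p = 6.7e-07). Map1lc3b, which encodes the widely used autophagosome marker LC3B, was higher than in DGCs by 0.45 in CA1 PNs (SE 0.06) and by 0.57 in CA3 PNs (SE 0.06). Gabarapl1 was higher than in DGCs by 0.43 and 0.45, in 27 of 27 and 26 of 26 mice, and its LFC between CA1 and CA3 PNs was −0.02 (SE 0.04, adjusted p = 0.80). Without the 10 libraries it was −0.11 (SE 0.04, adjusted p = 0.038), and that of Map1lc3b went from −0.12 to −0.16 (SE 0.06, adjusted p = 0.028). Gabarapl2 gave values of −0.04, 0.08 and 0.12 for the 3 pairs, none past the threshold.

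**Figure D3:**
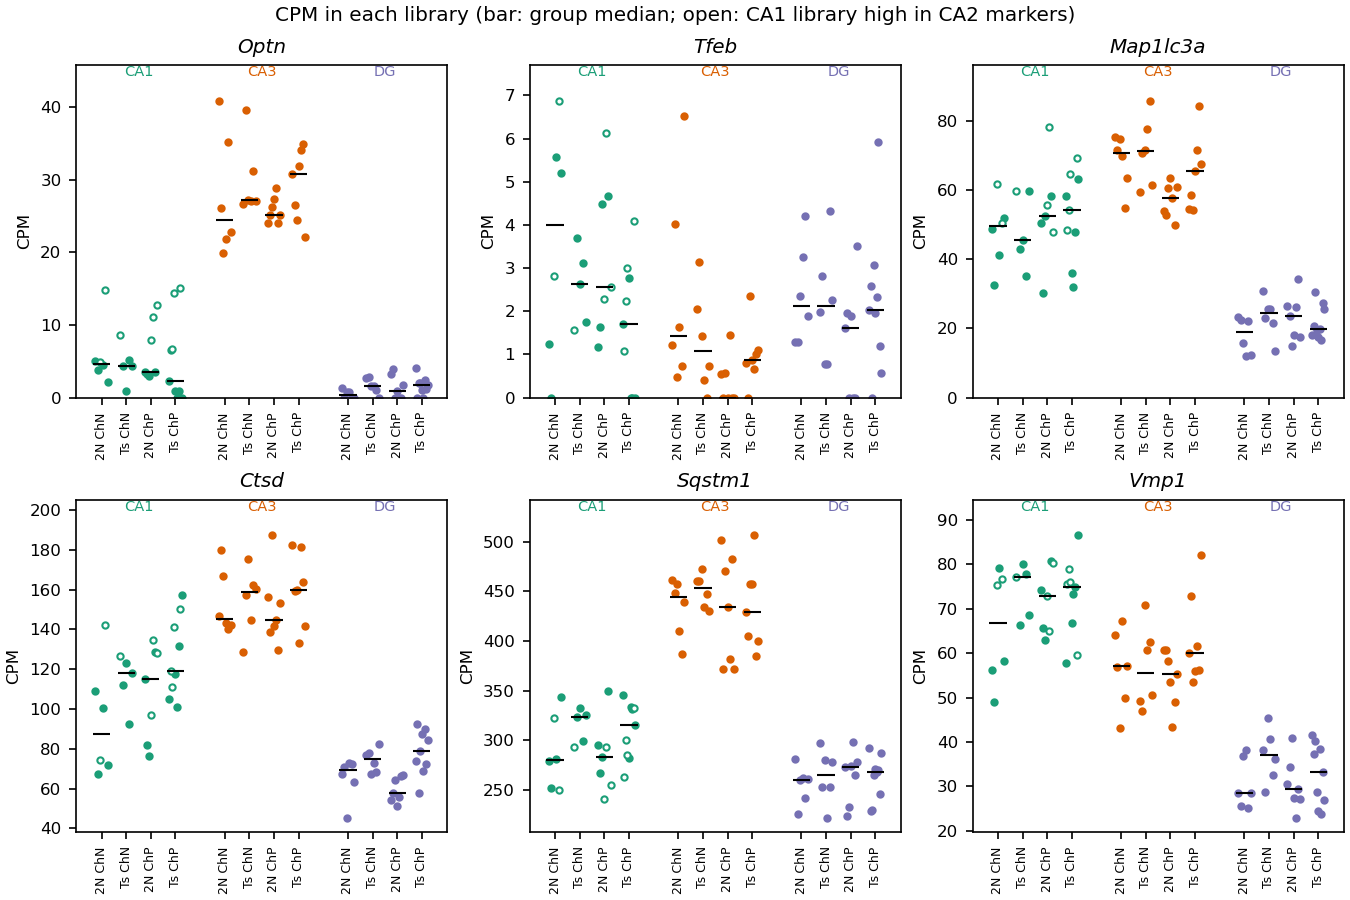
Level in each library (CPM, points, with the median as a line) of Optn, Tfeb, Map1lc3a, Ctsd, Sqstm1 and Vmp1 for each neuron population. CA3 PN libraries lie above all DGC libraries for Optn (20.0 to 40.9 against 0 to 4.05 CPM), Map1lc3a, Ctsd and Sqstm1.

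Among the lysosomal members, the genes of 3 cathepsin proteases were lower in DGCs than in CA3 PNs. The oligodendrocyte marker sums, given above for Optn, were likewise lower in DGCs than in CA3 PNs, with no overlap. The part of glia in the results for lysosomal genes was not tested. Ctsd, encoding the aspartic protease cathepsin D, had 128 to 187 CPM in CA3 PNs (median 155), while CA1 PNs had 67.1 to 157 (median 115) and DGCs had 45.4 to 92.7 (median 70.0). CA3 PN and DGC libraries did not overlap, and the LFC was 1.17 (SE 0.06, adjusted p = 9.4e-36). For CA1 PNs the LFC was 0.67 against DGCs (SE 0.06, adjusted p = 5.2e-18) and −0.49 against CA3 PNs (SE 0.06, adjusted p = 3.5e-12). Ctsb, encoding the cysteine protease cathepsin B, differed between pyramidal neurons and DGCs but not detectably between the pyramidal populations. It had 251.3 to 346 CPM in CA1 PNs, with 222 to 339 for CA3 PNs and 125 to 195 for DGCs. The LFC was 0.84 for CA1 PNs against DGCs (SE 0.04, adjusted p = 3.2e-35), 0.82 for CA3 PNs against DGCs (SE 0.04, adjusted p = 9.8e-35) and 0.02 between CA1 and CA3 PNs (SE 0.04, adjusted p = 0.82). Ctsl was higher than in DGCs by 0.39 in CA1 PNs (SE 0.10) and by 0.47 in CA3 PNs (SE 0.10). The CA1 PN value rested on the libraries high in CA2 markers. Without them it was 0.10 (SE 0.11, adjusted p = 0.54), and Ctsl was lower in CA1 than in CA3 PNs by −0.33 (SE 0.11, adjusted p = 0.0048), against −0.08 in all libraries.

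Of the membrane glycoproteins, Lamp1 was higher in CA3 PNs than in DGCs by 0.58 (SE 0.06, adjusted p = 1.9e-15), with 93.8 to 132 CPM against 63.9 to 91.0, and lower in CA1 than in CA3 PNs by −0.42 (SE 0.06, adjusted p = 2.1e-09). Its LFC for CA1 PNs against DGCs was 0.15 (adjusted p = 0.034), but −0.01 with library totals and −0.04 without the 10 libraries. Lamp2 passed the threshold between CA1 and CA3 PNs, at −0.23 (SE 0.08, adjusted p = 0.012). Without the 10 libraries this was −0.39, and Lamp2 was also lower in CA1 PNs than in DGCs by −0.24 (SE 0.10, adjusted p = 0.031), against −0.08 in all libraries. Tfeb was instead lowest in CA3 PNs, at 0 to 6.53 CPM with a median of 0.762, against medians of 2.56 in CA1 PNs and 1.95 in DGCs. The ranges overlapped, since the highest libraries stood at 6.87 and 5.93. The LFC was 1.35 for CA1 against CA3 PNs (SE 0.36, adjusted p = 0.0011) and −1.01 for CA3 PNs against DGCs (SE 0.36, adjusted p = 0.014), on a median count of 1 to 3 reads per library. Without the 10 CA1 PN libraries the first was 1.14 (SE 0.44, adjusted p = 0.025).

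TFEB binds the CLEAR element, which has the E-box CACGTG at its core. RefSeq promoter windows of 300 bases, 250 before to 50 after the start site (GRCm38.p6), were at hand for 33 of the 40 genes. The 10-base CLEAR palindrome, which is TCACGTGA flanked by G and C, was in none of the 33, against 0.370% of 27025 genes. The 8-base core TCACGTGA was in the windows of 2 genes, Atg3 and Ctsd, against 1.12% of all genes. The E-box itself was in 7 of the 33 (21.2%), namely Atg14, Atg3, Atg5, Atg7, Ctsd, Ctsl and Lamp1, against 8.09% of all genes and 8.91% of 17491 protein-coding genes. Each motif reads the same on both strands, and each longer one holds the shorter ones. The stretches around the E-boxes (in capitals) are printed for Ctsd and Lamp1, a protease and a membrane protein gene that were both higher in CA3 PNs than in DGCs, and for Atg3, the conjugating enzyme gene that, like Ctsd, holds the 8-base core. The Ctsd stretch is chr7:142387898-142387947 on the minus strand, its E-box starting 98 bases before the start site; a further E-box of this gene starts at 245. The Lamp1 stretch is chr8:13159078-13159160 on the plus strand, with 4 E-boxes starting at 61, 45, 28 and 15 bases before the start site. The Atg3 stretch is chr16:45158713-45158785 on the plus strand, with E-boxes starting at 94 and 71.
Ctsd: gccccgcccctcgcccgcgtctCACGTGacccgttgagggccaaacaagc
Lamp1: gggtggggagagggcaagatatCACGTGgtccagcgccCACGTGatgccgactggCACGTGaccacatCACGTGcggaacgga
Atg3: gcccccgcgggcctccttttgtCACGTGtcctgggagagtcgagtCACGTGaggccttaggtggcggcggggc

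These are matches of letters and say nothing of binding. Of the 7 genes that hold an E-box, Ctsd, Lamp1, Atg5, Atg7 and Ctsl were among the 29 that differed between CA3 PNs and DGCs, while Atg3 and Atg14 differed in no pair of populations. For CA3 PNs against DGCs, 72.5% of all 40 members and 72.5% of expressed protein-coding genes differed. A link between E-boxes and the difference was not tested.

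In the initiation complex, the kinase genes Ulk1 and Ulk2 had different patterns. Ulk1 was lowest in CA1 PNs, at a median of 45.6 CPM against 67.4 in CA3 PNs and 55.5 in DGCs. Its LFC was −0.66 for CA1 against CA3 PNs (SE 0.08, adjusted p = 6.9e-13) and −0.41 for CA1 PNs against DGCs (SE 0.08, adjusted p = 2.7e-06), lower in 24 of 25 and 24 of 27 mice. The CA3 PN and DGC difference, 0.25 (SE 0.07, adjusted p = 0.0018), was 0.025 with library totals. Ulk2 was instead lowest in DGCs, with medians of 92.9, 116 and 75.9 CPM, and its LFC for CA3 PNs against DGCs was 0.64 (SE 0.05, adjusted p = 1.2e-20). The scaffold gene Rb1cc1 was lower in CA1 than in CA3 PNs by −0.23 (SE 0.05) and higher in CA3 PNs than in DGCs by 0.17, a value that turned to −0.06 with library totals, and Atg101, which stabilizes the complex, was higher in CA1 PNs by 0.30 (SE 0.09). Its partner Atg13 had values of 0.01, −0.09 and −0.10 for the 3 pairs, none past the threshold.

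Both genes of mTORC1 differed between populations. Mtor, the kinase, was lower in DGCs than in both other populations, by an LFC of 0.33 for CA1 PNs (SE 0.05) and 0.50 for CA3 PNs (SE 0.05), and it was lower in CA1 than in CA3 PNs by −0.17 (SE 0.05). Without the 10 libraries the CA1 PN values were 0.19 and −0.28, both still past the threshold. Rptor, its substrate adaptor, was lower in CA1 PNs by −0.17 against CA3 PNs (SE 0.06, adjusted p = 0.011) and by −0.13 against DGCs (SE 0.06, adjusted p = 0.044), the latter being the one direction not shared by the 4 groups and past the threshold no longer without the 10 libraries (adjusted p = 0.064).

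In the class III kinase complex, 5 of 6 genes were higher in CA3 PNs than in DGCs, the catalytic subunit Pik3c3 by 0.71 (SE 0.07, adjusted p = 2.0e-17), Becn1 by 0.43 (SE 0.05, adjusted p = 3.1e-12), the scaffold Pik3r4 by 0.40, the endosomal partner Uvrag by 0.31 and Ambra1, a Beclin 1 regulator, by 0.17. Beside them, 27.4% of all genes and 39.6% of expressed protein-coding genes were higher in CA3 PNs than in DGCs. With library totals 3 of the 5 class III genes were still higher, while Ambra1 changed sign to −0.06. Pik3c3 had 49.1 to 87.4 CPM in CA3 PNs (median 65.3), while CA1 PNs had 33.4 to 79.1 (median 51.4) and DGCs had 27.9 to 54.4 (median 41.1), and CA3 PNs exceeded DGCs in 26 of 26 mice. It was 44.1 to 79.1 CPM in the 10 CA1 PN libraries high in CA2 markers and 33.4 to 58.4 in the other 17. Its LFC for CA1 PNs against DGCs, 0.30 (SE 0.07, adjusted p = 1.7e-04), was 0.12 without the 10 (SE 0.08, adjusted p = 0.28). Atg14, the subunit that directs the complex to autophagy, had values of 0.10, 0.09 and −0.01 for the 3 pairs, none past the threshold.

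Among the genes for membrane supply, Vmp1, which encodes an endoplasmic reticulum lipid scramblase, was highest in CA1 PNs at 48.9 to 86.6 CPM (median 74.1). CA3 PNs had 43.2 to 82.1 (median 57.0) and DGCs 22.9 to 45.3 (median 31.5), so that every CA1 PN library exceeded every DGC library. The LFC was 1.13 for CA1 PNs against DGCs (SE 0.07, adjusted p = 1.2e-30), 0.84 for CA3 PNs against DGCs (SE 0.07, adjusted p = 1.6e-21) and 0.29 for CA1 against CA3 PNs (SE 0.06, adjusted p = 5.0e-05), the last being 0.19 without the 10 libraries (adjusted p = 0.025). Atg9a, the transmembrane scramblase on the vesicles that seed the membrane, was highest in CA3 PNs, by 0.64 over DGCs (SE 0.05, adjusted p = 3.1e-21) and with −0.41 for CA1 against CA3 PNs (SE 0.05, adjusted p = 5.6e-11). The lipid transfer protein genes split, Atg2a being higher in CA3 PNs than in CA1 PNs and DGCs and Atg2b lower in CA1 PNs than in both others, by −0.15 and −0.22. Wipi1, a phosphoinositide reader, was lower in CA1 PNs than in DGCs by −0.62 (SE 0.16, adjusted p = 4.5e-04), but by −0.40 without the 10 libraries (SE 0.19, adjusted p = 0.066). Its paralogue Wipi2 had values of −0.05, 0.00 and 0.05.

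In the conjugation machinery none of 7 genes passed the threshold between CA1 PNs and DGCs, although 2 did with library totals, Atg12 and Atg16l1 (both lower in CA1 PNs). For this pair 49% of all genes and 65.9% of expressed protein-coding genes passed it. Against DGCs, CA3 PNs had more Atg7, the E1-like enzyme (LFC 0.54, SE 0.13, adjusted p = 1.4e-04), Atg5 (0.53, SE 0.11, adjusted p = 7.2e-06), its partner Atg12 (0.29, SE 0.07) and the ATG8 protease Atg4b (0.19, SE 0.07). Atg4b was −0.04 with library totals. Atg16l1, which completes the complex of these proteins at the membrane, had less in CA3 PNs (−0.32, SE 0.06, adjusted p = 2.5e-06), with medians of 63.4 CPM in CA3 PNs, with 73.5 for CA1 PNs and 80.3 for DGCs. The E2-like enzyme genes Atg3 and Atg10 gave values of 0.09 and 0.45 for CA3 PNs against DGCs (SE 0.09 and 0.21), neither past the threshold.

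Another 108 genes of the pathway, none of them a member, were counted in the same fit. Between CA3 PNs and DGCs 73 differed (67.6%), 57 higher and 16 lower in CA3 PNs (44 and 34 with library totals), beside the 55.9% of all genes and 72.5% of expressed protein-coding genes given above. All 15 listed genes of the V-ATPase, the proton pump that acidifies the lysosome, were higher in CA3 PNs, with a median LFC of 0.95, and 14 were so with library totals. The pair with the smallest p were Atp6ap2 (1.81, SE 0.06) and Atp6v1g2 (1.15, SE 0.04), both of the pump. Between CA1 PNs and DGCs 72 differed (66.7%, beside 49% and 65.9%), 53 higher and 19 lower in CA1 PNs. The split was 38 to 25 with library totals and 41 to 21 without the 10 libraries. The smallest p belonged to Atp6ap2 (1.39, SE 0.06) and the acid glucosidase gene Gaa (1.21, SE 0.05). Of the V-ATPase genes, 13 were higher and 1, Atp6v1a, was lower in CA1 PNs, and 11 and 2 in either alternative. Between CA1 and CA3 PNs 53 differed (49.1%, beside 39.4% and 54.4%), 14 higher and 39 lower in CA1 PNs (20 and 30 with library totals, 14 and 45 without the 10 libraries), including 12 V-ATPase genes, all lower. The smallest p here belonged again to Gaa (1.06, SE 0.05) and Psap, the precursor of the saposins (−0.69, SE 0.04).

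The second question was whether genotype changed these genes. In none of the 6 comparisons of Ts with 2N mice did a member pass an adjusted p of 0.05 by edgeR. At an unadjusted p under 0.05, the threshold of the study, CA1 PNs on ChN had 1 of 40, CA3 PNs on ChN 1 of 40 and DGCs on ChN 5 of 39 (Optn being too low to test). On ChP they had 0 of 40, 1 of 39 (Tfeb not tested) and 3 of 40. Over all genes, the shares at this threshold were 3.77%, 9.2% and 8.5% on ChN and 3.6%, 4.99% and 7.6% on ChP. The CA1 PN comparison on ChN kept as 2N the library whose triplicated genes stood at the Ts level (9150 CPM). Without that library and 1 other 2N library, 3 members were called there. The median LFC of the members lay between −0.02 and 0.01 in all 6. The 95% interval lay within a 1.5-fold change either way for 26, 36 and 29 members on ChN and for 34, 37 and 33 on ChP.

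**Figure D4:**
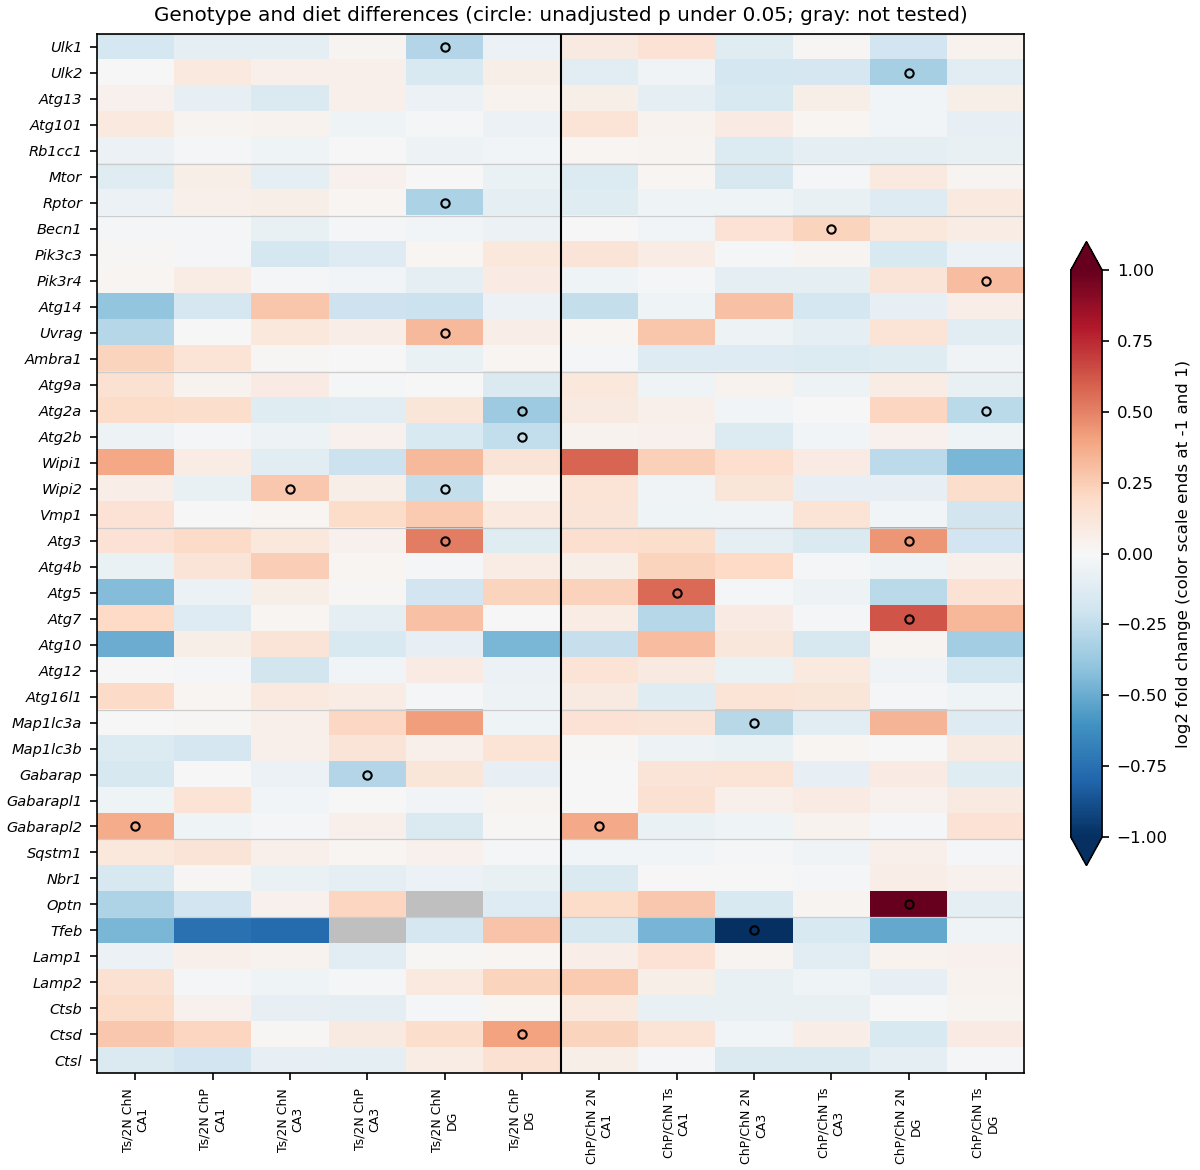
LFC of each member as a color scale, for each neuron population. Columns are Ts against 2N on ChN and ChP, then ChP against ChN in 2N and in Ts. Circles mark an unadjusted p under 0.05 and gray cells were not tested; no column of members holds more than 5 circles, the DGC comparison of Ts with 2N on ChN.

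In DGCs on ChN, Rptor had 96.0 to 120 CPM in 2N mice (median 105) and 69.3 to 96.9 in Ts mice (median 87.5), an LFC of −0.32 (SE 0.11, adjusted p = 0.23). Only the highest Ts library reached the lowest 2N library. Atg3 had 12.95 to 29.8 CPM in 2N mice (median 24.7) and 28.9 to 39.8 in Ts mice (median 35.6), an LFC of 0.52 (SE 0.18, adjusted p = 0.28), again with a narrow overlap. Ulk1 had 55.0 to 77.7 CPM (median 63.2) against 36.8 to 71.0 (median 54.5), an LFC of −0.29 (SE 0.13, adjusted p = 0.54). Uvrag and Wipi2 were the other 2 DGC genes at this threshold, with LFCs of 0.32 and −0.24.

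The same genes, chosen for their small p in DGCs on ChN, had the following values elsewhere. On ChN, Rptor had an LFC of −0.06 in CA1 PNs (SE 0.13) and 0.06 in CA3 PNs (SE 0.10), Atg3 had 0.15 (SE 0.22) and 0.11 (SE 0.16), and Ulk1 had −0.18 (SE 0.19) and −0.10 (SE 0.12). On ChP, Rptor had −0.09 in DGCs (SE 0.10), Atg3 −0.12 (SE 0.17) and Ulk1 −0.06 (SE 0.13). Values smaller than those that chose the genes are what such a choice leads to, and no contrast is read from them. The Atg3 interaction, −0.63 (SE 0.24, adjusted p = 1.0), uses the same ChN libraries. The genotype effects of Ulk1 on ChN in CA1 PNs and DGCs differed by 0.11 (SE 0.23, adjusted p = 1.0).

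In CA1 PNs on ChN, Gabarapl2 had 25.2 to 33.8 CPM in the 6 libraries labelled 2N (median 27.0). The highest of these was that of mouse 17-154, whose triplicated genes stood at the Ts level. The 5 Ts libraries had 41.7, 37.5, 31.6, 43.6 and 34.3 CPM. All but 1 of the Ts libraries lay above the 2N range, and the LFC was 0.37 (SE 0.17, adjusted p = 1.0), or 0.43 without mouse 17-154. Without the libraries high in CA2 markers, which left 4 of each genotype, the LFC was 0.36 and past the threshold no longer, while Ctsd was. In CA3 PNs and DGCs on ChN the Gabarapl2 value was −0.01 (SE 0.15) and −0.15 (SE 0.17), and on ChP it was −0.05, 0.05 and 0.01 for the 3 populations in that order, CA1 PNs first.

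In CA3 PNs on ChN, Wipi2 had 73.3 to 87.9 CPM in 2N mice (median 76.7) and 79.9 to 115 in Ts mice (median 92.8), an LFC of 0.27 (SE 0.10, adjusted p = 0.34). The CA3 PN library of mouse 15-145 held at most 7546 CPM of triplicated genes, against 9739 or more in the Ts libraries. With this library under its own Ts label the Wipi2 LFC was 0.16, short of the threshold, and without Ts mouse 17-157 it was 0.20. In DGCs it went the other way, from a median of 84.6 CPM in 2N mice to 73.8 in Ts mice. The difference of the 2 genotype effects was 0.50 (SE 0.16, adjusted p = 0.98). Gabarap in CA3 PNs on ChP had 37.7 to 48.0 CPM in 2N mice and 26.6 to 40.2 in Ts mice, an LFC of −0.29 (SE 0.13, adjusted p = 0.95). On ChN its value there was −0.06 (SE 0.14).

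Ctsd in DGCs on ChP had the smallest adjusted p of any genotype comparison. It had 51.2 to 66.7 CPM in 2N mice (median 57.7) and 58.0 to 92.7 in Ts mice (median 79.1), an LFC of 0.41 (SE 0.12, adjusted p = 0.11). In the same libraries the marker sums of several other cell types had higher medians in Ts mice, with overlapping ranges. The 7 microglial markers summed to 15.1 to 31.8 CPM in 2N mice (median 24.0) and 21.6 to 44.2 in Ts mice (median 34.2), and the 6 astrocyte markers to 129 to 183 (median 162) and 143 to 232 (median 196). The 6 inhibitory neuron markers summed to 167 to 249 CPM (median 206) and 219 to 319 (median 274). No microglial or astrocyte marker was at 0 in most libraries of either group, while the inhibitory markers Sst (in 2N mice) and Vip (in both) were, and the part of these cells in the Ctsd result was not tested. On ChN the DGC value was 0.18 (SE 0.12), with 45.4 to 73.0 CPM in 2N mice and 67.2 to 82.4 in Ts mice. In CA1 PNs the values were 0.27 on ChN and 0.21 on ChP, and in CA3 PNs 0.01 and 0.09. The lipid transfer genes Atg2a (−0.36, SE 0.14) and Atg2b (−0.25, SE 0.10) were the other 2 members at the unadjusted threshold in DGCs on ChP, with medians of 44.2 and 38.1 CPM and of 106 and 91.9 CPM in 2N and Ts mice. On ChN the DGC values of this pair were 0.12 (SE 0.15) and −0.16 (SE 0.11).

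**Figure D5:**
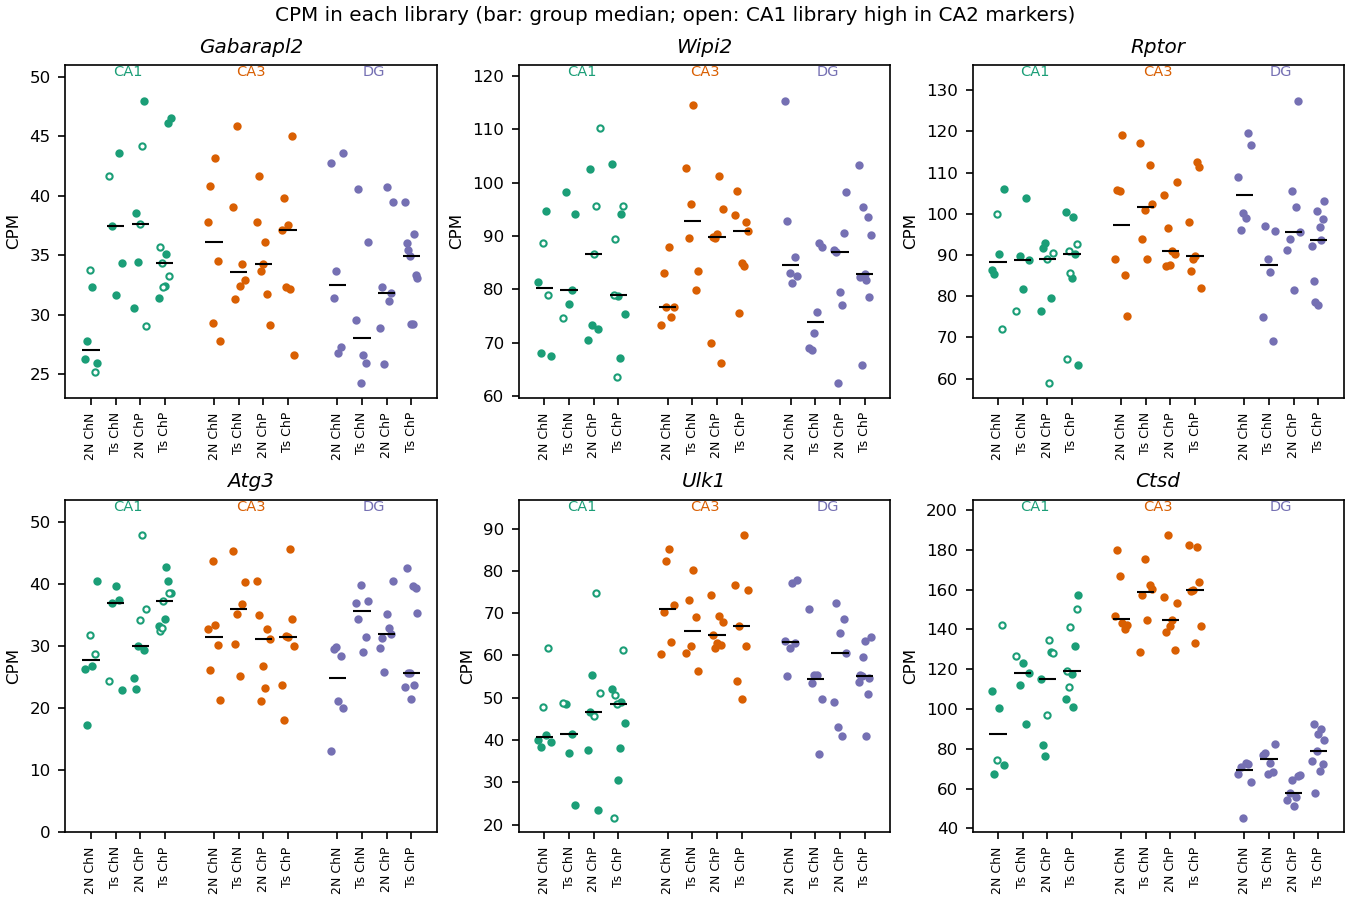
Level in each library (CPM, points, with the median as a line) of Gabarapl2, Wipi2, Rptor, Atg3, Ulk1 and Ctsd by population, genotype and diet. In DGCs on ChN, Ts libraries of Rptor lie at 69.3 to 96.9 CPM and 2N libraries at 96.0 to 120, a narrow overlap. The points of most other pairs of groups overlap as well.

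The difference of the ChN genotype effect between populations was tested for every gene. The CA1 PN effect again kept as 2N the library with triplicated genes at the Ts level. For CA1 against CA3 PNs, 2 of 40 members were at an unadjusted p under 0.05, Atg14 (−0.65, SE 0.29) and Ctsb (0.28, SE 0.13), against 3.42% of all genes. Without the 10 CA1 PN libraries they were −0.39 and 0.23, neither past the threshold, and Ctsd was the 1 member at it. For CA1 PNs against DGCs they were Uvrag (−0.60, SE 0.22) and Gabarapl2 (0.54, SE 0.24), against 4.45%. For CA3 PNs against DGCs they were Wipi2, given above, and Rptor (0.39, SE 0.16), against 4%. The smallest adjusted p among the members was 0.98.

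Of the 108 further pathway genes, genotype on ChN put 4 of 102 at the unadjusted threshold among CA1 PNs, 11 of 104 among CA3 PNs and 5 of 104 among DGCs, that is 3.92%, 10.6% and 4.81%, beside 3.77%, 9.2% and 8.5% of all genes. On ChP the counts were 7 of 105, 4 of 106 and 8 of 105, or 6.67%, 3.77% and 7.62%, beside 3.6%, 4.99% and 7.6%. The smallest adjusted p was that of Rragd in CA3 PNs on ChN (LFC 0.34, SE 0.09, adjusted p = 0.059).

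The third question was whether maternal choline changed these genes. In 2N mice, ChP against ChN gave 1 of 40 members at an unadjusted p under 0.05 in CA1 PNs, while CA3 PNs had 2 and DGCs had 4, against 3.27%, 4.9% and 5.82% of all genes. In Ts mice there were 1, 1 and 2, against 3.05%, 4.19% and 3.81%. The interaction of genotype and diet gave 1, 0 and 2 members, against 3.22%, 4.87% and 3.97%. For CA1 PNs, the 2N and interaction counts kept the library labelled 2N with triplicated genes at the Ts level. Without it and 1 other 2N library they were 2 and 0. No member passed an adjusted p of 0.05, the smallest being 0.74 in the diet comparisons and 1.0 in the interaction.

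Tfeb in CA3 PNs of 2N mice had the largest diet value. It had 0.465 to 6.53 CPM on ChN (median 1.42) and 0 to 1.45 on ChP (median 0), an LFC of −2.35 (SE 0.83, adjusted p = 0.88), at about 1 read per library. Map1lc3a in the same libraries went from 55.0 to 75.5 CPM on ChN to 50.0 to 63.7 on ChP, an LFC of −0.27 (SE 0.11, adjusted p = 0.96). In DGCs of 2N mice, Ulk2 had 80.7 to 98.7 CPM on ChN (median 83.4) and 51.4 to 81.5 on ChP (median 68.9), an LFC of −0.33 (SE 0.12, adjusted p = 0.74). The overlap was narrow, the highest ChP library standing just above the lowest ChN library. Atg3 in DGCs of 2N mice rose from a median of 24.7 to 31.8 CPM only at the unadjusted threshold (0.44, SE 0.18, adjusted p = 0.79), as did Atg7 (0.63, SE 0.31) and Optn (1.75, SE 0.85), the latter on medians of 0.392 and 0.948 CPM.

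In CA1 PNs, Gabarapl2 had an LFC of 0.38 for ChP against ChN in 2N mice (SE 0.15, adjusted p = 1.0), with a median of 37.6 CPM on ChP against 27.0 on ChN. Its interaction was −0.44 (SE 0.21, adjusted p = 1.0), and −0.37 and short of the threshold without the 10 libraries. Both comparisons use the same 2N ChN libraries as the genotype value of this gene, so the 3 values are not independent. In Ts mice the members at the threshold were Atg5 in CA1 PNs (0.56, SE 0.24), Becn1 in CA3 PNs (0.22, SE 0.10), and Pik3r4 (0.31, SE 0.14) and Atg2a (−0.27, SE 0.14) in DGCs. The Atg5 value was 0.36 without the 10 libraries, short of the threshold. Atg2a also had an interaction of −0.49 (SE 0.20, adjusted p = 1.0) in DGCs. The sources used here do not state whether the libraries of the 2 diets were prepared together, and diet and any such batch cannot be told apart.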

How the data were processed

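Hippocampal sections were Nissl stained and the 3 neuron populations were captured with the laser from the same sections. Per the labels and the submitters' processing notes, the authors made stranded total RNA libraries, trimmed reads with Trimmomatic (version 0.39), aligned them with STAR and estimated gene levels with RSEM, after FastQC (version 0.11.9) and Picard (version 2.26.2) quality checks; the notes name GRCm39 and mm10. The deposited expected counts, RSEM estimates that need not be whole, were rounded, and the deposited TPM values of the authors (scaled per transcript length and library) were used only to compare levels between genes.

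Genes over 0.1 CPM in at least 10 libraries were fitted with edgeR (version 4.0.16, R 4.3.3; TMM, quasi-likelihood test) over the whole table, with Benjamini-Hochberg adjustment over all genes tested. Populations were compared in 1 fit of all 81 libraries with the mouse as a block, averaging the 4 groups, since the same mice gave all 3 populations; over 7647 genes, libraries of 1 mouse deviated together with a median correlation of 0.104 over 78 pairs, against −0.003 between mice. Genotype was tested within a population and diet, diet and interaction in 1 fit per population. A member was called at an adjusted p under 0.05 between populations and at an unadjusted p under 0.05 elsewhere, as in the study. The RNA concentration and Picard covariates of the study, which used limma-voom, were not used. DESeq2 (version 1.42.0), limma-voom (limma version 3.58.1), library totals, other filters, left-out libraries and the fit without the block were alternatives. The tests were run on simulated counts with 1 fixed spread for every gene and no mouse effect, a simpler setting than the data. Changes of 1.5-fold and 2-fold were put in. At an adjusted p under 0.05, 7% and 52% of them were found for genotype on ChN in CA1 PNs. The shares were 18% and 80% for genotype on ChP in DGCs and 2% and 24% for the CA3 PN interaction. For CA3 PNs against DGCs they were 87% and 100%. CPM values are counts scaled by TMM factors. Mice are the replicates, and their number and the library totals limit the precision.

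The members, their roles and the other lists were chosen with earlier results of these data known. Every member is given with its role. Members named in a genotype, diet or interaction comparison were those with an adjusted p under 0.05 or, if fewer than 3, up to 3 with the smallest unadjusted p under 0.05. Between populations they were the 2 called members of each role with the largest change, for levels the 3 highest, the 3 lowest and the 5 ATG8 genes, and for other pathway genes the 2 of smallest p. Uvrag and Wipi2 (genotype in DGCs) and Atg7 (diet in DGCs) were named beyond this rule after their values were seen.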

Additional observations from a re-analysis of the deposited data

Results flagged for a closer look

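Single libraries that stood far from the rest of their group were looked for in 15 members over 12 groups. Of these 180 sets, 8 (4.44%) had such a library by Dixon's criterion, where chance marks about 1 in 20.

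In CA1 PNs of 2N ChN mice, the library of mouse 17-21 had 14.9 CPM of Optn, against 2.08 to 5.00 in the other 5, and 49.3 CPM of Atg2a, against 31.2 to 36.8. This library is among the 10 with high CA2 markers. In CA1 PNs of 2N ChP mice, mouse 15-296 had 114 CPM of Atg2b, against 74.3 to 90.7.

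In CA3 PNs, mouse 16-490 had 39.6 CPM of Optn, against 26.7 to 31.2 in the other Ts ChN mice, and mouse 17-153 had 25.8 CPM of Gabarap, against 36.0 to 41.7. Among 2N ChP mice, mouse 15-336 had 1.45 CPM of Tfeb, against 0 to 0.571.

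In DGCs of 2N ChN mice, mouse 17-154 had 45.4 CPM of Ctsd, against 63.5 to 73.0, and mouse 15-145 had 115 CPM of Wipi2, against 81.2 to 92.8.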

How the results depend on the processing

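Of the named changes recomputed under every alternative, none turned direction. Of the other called members, Ambra1, Rb1cc1 and Atg4b turned to −0.06, −0.06 and −0.04 for CA3 PNs against DGCs with library totals, and Lamp1 to −0.01 for CA1 PNs against DGCs (−0.04 without the CA1 PN libraries high in CA2 markers), none past the threshold. Between populations, the counts of 27, 24 and 29 members became 13, 11 and 21 in the 2N ChN libraries alone, which are fewer. Without the replicate block (the pairing by mouse) the counts were 27, 23 and 29, and each difference of genotype effects had 2 calls as before. The comparisons of genotype could not be blocked, as no mouse is in both groups. Calls without the CA1 PN libraries high in CA2 markers (chosen after the data were seen) are given with the share of all genes. The difference of genotype effects had 1 member between CA1 and CA3 PNs (Ctsd, beside 4.34%). It had 4 between CA1 PNs and DGCs, Optn and Wipi2 being gained (4.92%), and 3 between CA3 PNs and DGCs, Optn being gained (5.73%). In CA1 PNs, genotype had 1 on ChN (Ctsd, beside 7.38%) and 2 on ChP (Atg3 and Rb1cc1, beside 7.01%). Diet there had 4 in 2N mice, Lamp2, Mtor and Wipi1 being gained (5.73%), and 1 in Ts mice (Optn, beside 3.3%). The interaction there had 0 (5.09%). Without the CA1 PN libraries of mice 17-21 and 17-154 the members called were 3 for genotype on ChN, 2 for diet in 2N mice and 0 for the interaction. For genotype on ChN in CA1 PNs the count was 0 under DESeq2 and with no filter, and 2 with library totals and with both diets in 1 fit. DESeq2 also gave 0 for the CA1 PN interaction, 3 for genotype on ChN in DGCs and 1 for diet in Ts DGCs, and library totals gave 1 for the latter and 4 for the difference between CA1 PNs and DGCs. With the 15-145 library under its own label, counts were 0 for genotype on ChN and 0 for diet in Ts mice, 1 for the interaction in CA3 PNs, and 4 for the difference between CA1 PNs and DGCs. A count minimum of 10 (filterByExpr) gave 1 for diet in 2N CA3 PNs and left Tfeb untested between populations. The cause of these shifts was not tested. The E-box motifs give 2 (8-base core) and 7 (6-base) genes by construction, against 0 for the palindrome.

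Leaving out 1 library at a time gave 0 to 2 calls in CA1 PNs, 0 to 3 in CA3 PNs and 3 to 6 in DGCs for genotype on ChN. In CA1 PNs there were 0 without Ts mice 16-357, 16-490 or 17-157 or 2N mice 15-147 or 17-56, and 2 without 2N mouse 17-172. In CA3 PNs there were 0 without Ts mouse 17-157, 3 without Ts mouse 17-192 and 2 without 2N mouse 17-154. In DGCs there were 3 without Ts mice 16-357 or 16-490. The LFC ranged from 0.32 to 0.44 for Gabarapl2, from 0.20 to 0.31 for Wipi2 in CA3 PNs, from −0.36 to −0.28 for Rptor, from 0.42 to 0.59 for Atg3 and from −0.39 to −0.22 for Ulk1. Gabarapl2 missed the unadjusted threshold without Ts mice 16-357, 16-490 or 17-157 or 2N mice 15-145, 15-147, 17-21 or 17-56, and Ulk1 without Ts mice 16-490, 17-173 or 17-192 or 2N mice 17-172 or 17-56. Rptor and Atg3 passed it each time.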

Other observations

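The other pathway genes are given by group for CA3 PNs against DGCs, with no test between groups. Of 24 lysosomal hydrolases and their cofactors, 17 differed, 13 higher and 4 lower in CA3 PNs, with a median LFC of 0.21. Examples, chosen after their values were seen, are Manba, a lysosomal mannosidase gene (1.66, SE 0.23), Psap, the saposin precursor (0.81, SE 0.04), and Galns, a sulfatase gene (−2.07, SE 0.17). Of 12 lysosomal membrane genes, 7 differed, 3 higher (Scarb2, Npc2 and Tmem175) and 4 lower (Npc1, Mcoln1, Tmem106b and Slc38a9), with a median of −0.14. Of 12 selective autophagy and mitophagy genes, 7 differed, all higher in CA3 PNs. Of 22 nutrient-sensing genes, 12 differed, 7 higher and 5 lower, with the widest LFCs for Deptor, an mTOR inhibitor (3.23, SE 0.22), and Sesn1, a stress-induced regulator of mTORC1 (−1.73, SE 0.10). Over all genes tested, 55.9% differed for this pair. With library totals the hydrolases split into 9 higher and 6 lower, the membrane genes into 2 and 7, the mitophagy genes into 5 and 3 and the nutrient-sensing genes into 5 and 9.

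Within the CA1 PN captures, values of 3 members, chosen after they were seen, are given with and without high CA2 markers; the ranges overlap for each. Atg101 had 18.3 to 26.7 CPM in the 10 libraries high in CA2 markers and 25.2 to 38.5 in the other 17, Atg16l1 had 48.1 to 75.3 against 65.7 to 110, and Gabarapl1 had 284 to 389 against 268 to 354. These libraries were split by marker genes, not by a label, and the values were not tested.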
